A study of Mus musculus with 48 samples.

Results

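Potassium channel genes were followed in cardiomyocytes isolated from mice whose nuclear and mitochondrial genomes came from 2 inbred strains. The members were all rows of the deposited count table whose symbol starts with Kcn, plus Abcc8 and Abcc9, the sulfonylurea receptor subunits of ATP-sensitive channels. There were 97 such rows among 30743, and 91 of them had at least 1 count in at least 1 library. Kcna10, Kcnh5, Kcnk16, Kcnk18, Kcns2 and Kcnv1 had no counts and were not measured. After the filter on low counts, 43 members were tested in the genotype set described next and 45 in the surgery set, 42 of them in both. In all 46 were tested in at least 1 set and 51 in neither. Of these 51, 45 had a few counts only, at most 81 in a library (Kcnn4). That library was number 489, described below, and Kcnn4 had at most 10 counts in any other.

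The series compared C57BL/6J and C3H/HeN wild-type mice with exchange (MNX) mice that pair a nucleus from one strain with mitochondria from the other. RNA from cardiomyocytes, isolated after the right ventricle and atria were removed, was sequenced in 48 libraries, and every label gives day 3 after either sham or ACF surgery, the procedure that the series title links to volume overload. The genotype set held 24 libraries with the treatment label sham, 6 each of C57n:C57mt (C57 nucleus and mitochondria), C3Hn:C3Hmt, C57n:C3Hmt and C3Hn:C57mt. The surgery set held 24 other libraries, 3 sham and 3 ACF from each of C57 wild type, C3H wild type and the groups titled C57_MNX and C3H_MNX. Age and sex are not given in the labels. In the surgery set the titles and genotype labels of the 12 exchange libraries disagree: libraries titled C3H_MNX carry the label C57n:C3Hmt, and libraries titled C57_MNX carry C3Hn:C57mt. They are named by title here, and the direction of any difference between them holds only for the titles.

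Potassium channels open to let potassium leave the cell, which ends the action potential and holds the resting membrane near the potassium equilibrium. In ventricular cardiomyocytes, voltage-gated (Kv) channels repolarise the membrane, inward rectifiers (Kir) set the resting potential, ATP-sensitive (KATP) channels couple the membrane to metabolism, and 2-pore-domain (K2P) channels carry background current. Mouse ventricle relies on fast transient outward and Kv1 and Kv2 currents, and less than larger mammals on the KCNQ1 and HERG delayed rectifiers.

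Promoter sequences are shown for 2 members that differed between the nuclei and for a close relative that did not pass the test, chosen among members with an entry in the promoter table. They cover 300 bases around the start of the gene as RefSeq annotates it on GRCm38.p6, the C57BL/6J reference, so they carry no C3H base. Of the 97 members 71 had an entry; Kcnj14, Kcne1, Kcnj11 and Kcnn2 were not among them. The first sequence is that of Kcnj4, which encodes Kir2.3 and was higher on the C3H nucleus (below), at chr15:79505192-79505491 on the minus strand. The second is that of Kcnj2, which encodes Kir2.1 of the same subfamily and did not pass the test, at chr11:111065914-111066213 on the plus strand. The third is the upstream of the 2 start sites of Kcnq5, a KCNQ pore gene that was higher on the C3H nucleus, at chr1:21962601-21962900 on the minus strand. Capitals mark GC boxes (GGGCGG) and CCAAT boxes (CCAAT) on either strand.
Kcnj4: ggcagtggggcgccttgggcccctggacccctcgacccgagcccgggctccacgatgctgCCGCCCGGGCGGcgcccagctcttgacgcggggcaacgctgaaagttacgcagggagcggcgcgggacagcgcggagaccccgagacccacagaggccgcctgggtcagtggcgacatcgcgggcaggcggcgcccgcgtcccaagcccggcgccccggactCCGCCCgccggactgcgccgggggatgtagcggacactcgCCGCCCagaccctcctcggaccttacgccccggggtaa
Kcnj2: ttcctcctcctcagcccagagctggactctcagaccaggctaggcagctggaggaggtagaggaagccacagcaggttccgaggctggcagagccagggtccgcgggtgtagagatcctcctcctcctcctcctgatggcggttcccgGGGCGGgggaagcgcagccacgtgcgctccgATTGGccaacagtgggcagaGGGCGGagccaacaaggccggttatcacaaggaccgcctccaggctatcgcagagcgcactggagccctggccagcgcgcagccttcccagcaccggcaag
Kcnq5: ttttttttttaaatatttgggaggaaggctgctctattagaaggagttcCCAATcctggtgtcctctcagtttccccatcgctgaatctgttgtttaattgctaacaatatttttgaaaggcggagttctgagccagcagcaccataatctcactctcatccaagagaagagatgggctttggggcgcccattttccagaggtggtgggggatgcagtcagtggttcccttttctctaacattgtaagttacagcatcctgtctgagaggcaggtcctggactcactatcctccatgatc
The Kcnj4 promoter held 4 GC boxes, 0 CCAAT boxes and 0 E-boxes (CANNTG), with a GC content of 76.0%. The Kcnj2 promoter held 2 GC boxes, 1 CCAAT box and 2 E-boxes, with a GC content of 66.7%. The Kcnq5 promoter held 0 GC boxes, 1 CCAAT box and 0 E-boxes, with a GC content of 46.0%. Of 32851 promoters of the same length in the table, 35.7% held a GC box, 37.4% a CCAAT box and 72.3% an E-box, and the median GC content was 52.7%. None of the 3 sequences held a TATA box (TATAAA), which 13.6% of all promoters held. These matches describe letters only.

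Libraries held 15967014 to 26085677 counts in the genotype set and 15893606 to 20772431 in the surgery set. Levels below are log2 CPM, the counts of a gene relative to the total of its library, scaled within each set, so levels are compared within a set only. The cardiomyocyte label was checked on 8 markers, whose mean level was 11.3 to 12.75 log2 CPM in every library except number 489, an ACF library of C57 wild type, where it was 9.24. In library 489 the erythrocyte markers averaged 11.48 log2 CPM, against at most 4.74 in the other 11 ACF libraries, and all members together made up 238.5 CPM. In libraries 1 and 2 of C57n:C57mt, Kcnj2 was 5.00 and 5.04 and Abcc9 7.23 and 7.58 log2 CPM, below the other 4 libraries of that group. Their dissociation and immediate-early markers averaged 5.94 and 6.03 log2 CPM, among the 3 highest of the set; the part of these markers in the member levels was not tested. Results that rest on these libraries are given with and without them.

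Per kilobase of the longest annotated transcript, Kcnk3, which encodes the K2P background channel TASK-1, had the highest level among members in the genotype set, with a median of 97.4 CPM per kb (74.5 to 114.6 over 24 libraries). Abcc9, which encodes SUR2, followed at 52.9 CPM per kb (19.96 to 83.9), and Kcnj11, which encodes the KATP pore Kir6.2, at 36.97 (22.7 to 67.2). The ranges of these neighbours overlap except that of Kcnk3 with that of Kcnj11. Kcng2, a modifier subunit of Kv2 channels, was at 25.4 CPM per kb, Kcnh2, the HERG pore gene, at 20.4, Kcnq1 at 17.8 and Kcnip2, the KChIP2 subunit of transient outward channels, at 17.8. Kcnj2, the main ventricular Kir2 gene, was at 11.9 CPM per kb and Kcnd2, the Kv4.2 pore gene, at 8.37. Transcript lengths came from another annotation than the one used for counting, so this order is approximate.

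The nuclear genome was compared in the genotype set as C3H nucleus minus C57 nucleus, averaged over both mitochondrial genomes. Of the 43 tested members, 20 passed an adjusted p of 0.05 in edgeR's quasi-likelihood test, 10 higher and 10 lower on the C3H nucleus. Among all 13395 genes tested, 35.7% passed, 18.9% higher and 16.8% lower, against 46.5% of the members. The median log2 fold change was -0.05 over the members and 0.01 over all genes. The largest difference was that of Kcnj14, then Kcnq5, Kcnj4, Kcne1 and Kcnk2 among the higher members, and Kcnip3, Kcna2, Kcnj11, Kcnn2 and Kcna4 among the lower. All 20 had the same sign with either mitochondrial genome, and 9 passed with each. With C57 mitochondria 17 members passed (9 higher, 8 lower, where 31.9% of all genes passed, 15.9% higher and 16.0% lower), and with C3H mitochondria 12 passed (5 higher, 7 lower, where 19.4% passed, 10.6% higher and 8.78% lower).

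**Figure D1:**
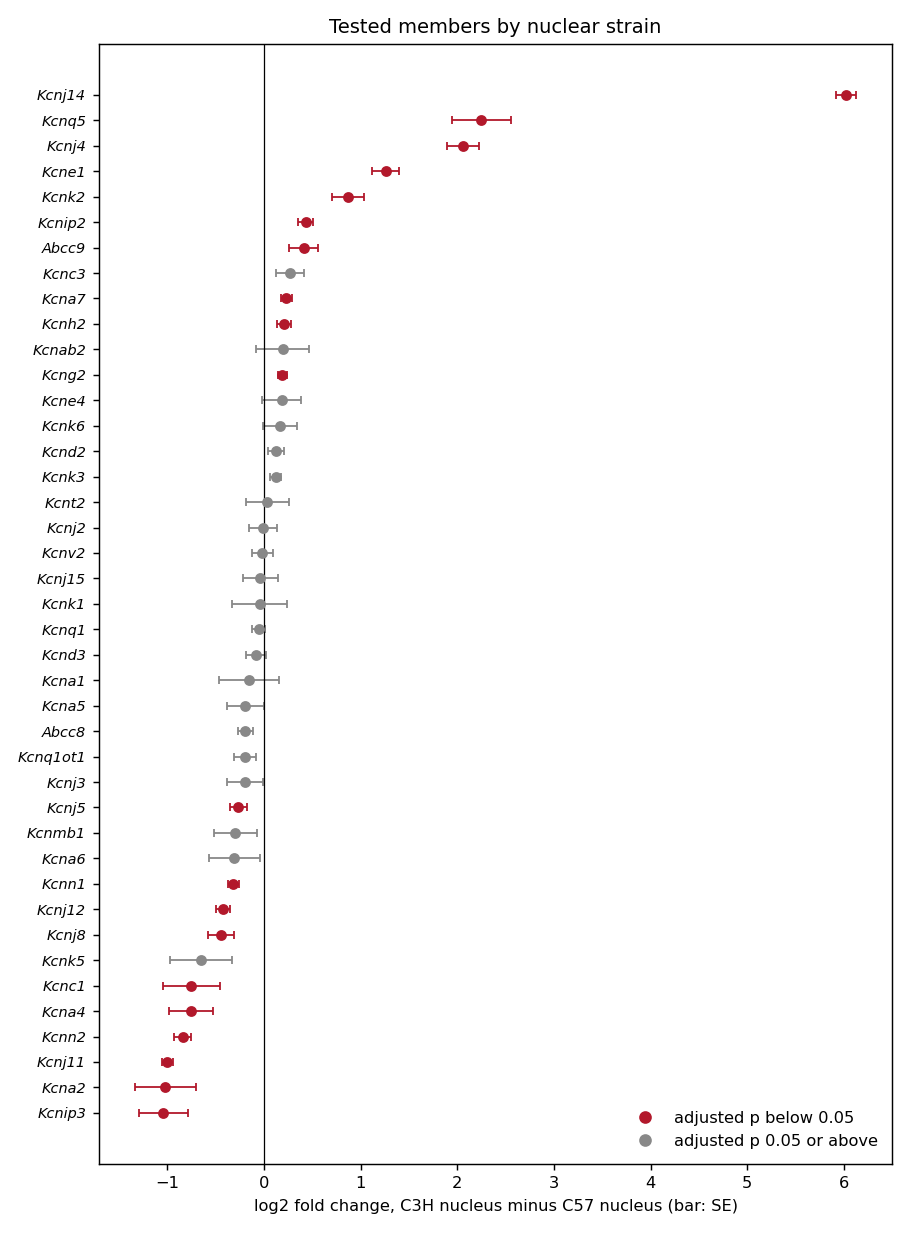
Log2 fold change of 41 of the 43 tested members, C3H nucleus minus C57 nucleus, in the genotype set, with its SE as a bar; red points passed an adjusted p of 0.05. Kcnj14 stands at 6.03, Kcnq5 at 2.25 and Kcnj4 at 2.06, and the other members lie between -1.04 and 1.26.

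A code in each title, the letter L with a digit whose meaning is not stated, limits this comparison. All 6 libraries of C3Hn:C3Hmt carry one code and all 6 of C57n:C57mt another. Each exchange group has 2 libraries with the code of the wild type of its nucleus and 4 with the code L2. With the code as a factor in the fit, 5 of the 20 members kept the call: Kcnj14, Kcnj4, Kcne1, Kcnj11 and Kcnn2. The sign was kept by 19 of 20, all but Kcnj8, and 1399 genes (10.4%) passed in place of 4776. Within L2, where nucleus and mitochondria differ together in 4 libraries against 4, 11 of the 19 that could be tested passed and all 19 kept their sign. In that fit 30.1% of all genes and 41.0% of all tested members passed. The 11 were Kcnc1, Kcne1, Kcnj11, Kcnj12, Kcnj14, Kcnj4, Kcnj5, Kcnk2, Kcnn1, Kcnn2 and Kcnq5. Abcc9, Kcna2, Kcna4, Kcna7, Kcng2, Kcnh2, Kcnip2 and Kcnj8 passed neither with the code as a factor nor within L2. Kcnip3 did not pass with the code as a factor and could not be tested within L2. Kcnj12, Kcnk2, Kcnn1 and Kcnq5 kept the call in 30 of 31 alternative settings, all but the fit with the code as a factor.

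The 12 libraries of the C3H nucleus did not overlap the 12 of the C57 nucleus for 5 members, 4 higher (Kcnj14, Kcnj4, Kcnq5 and Kcne1) and 1 lower (Kcnj11). Among all tested genes 6.1% did not overlap.

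**Figure D2:**
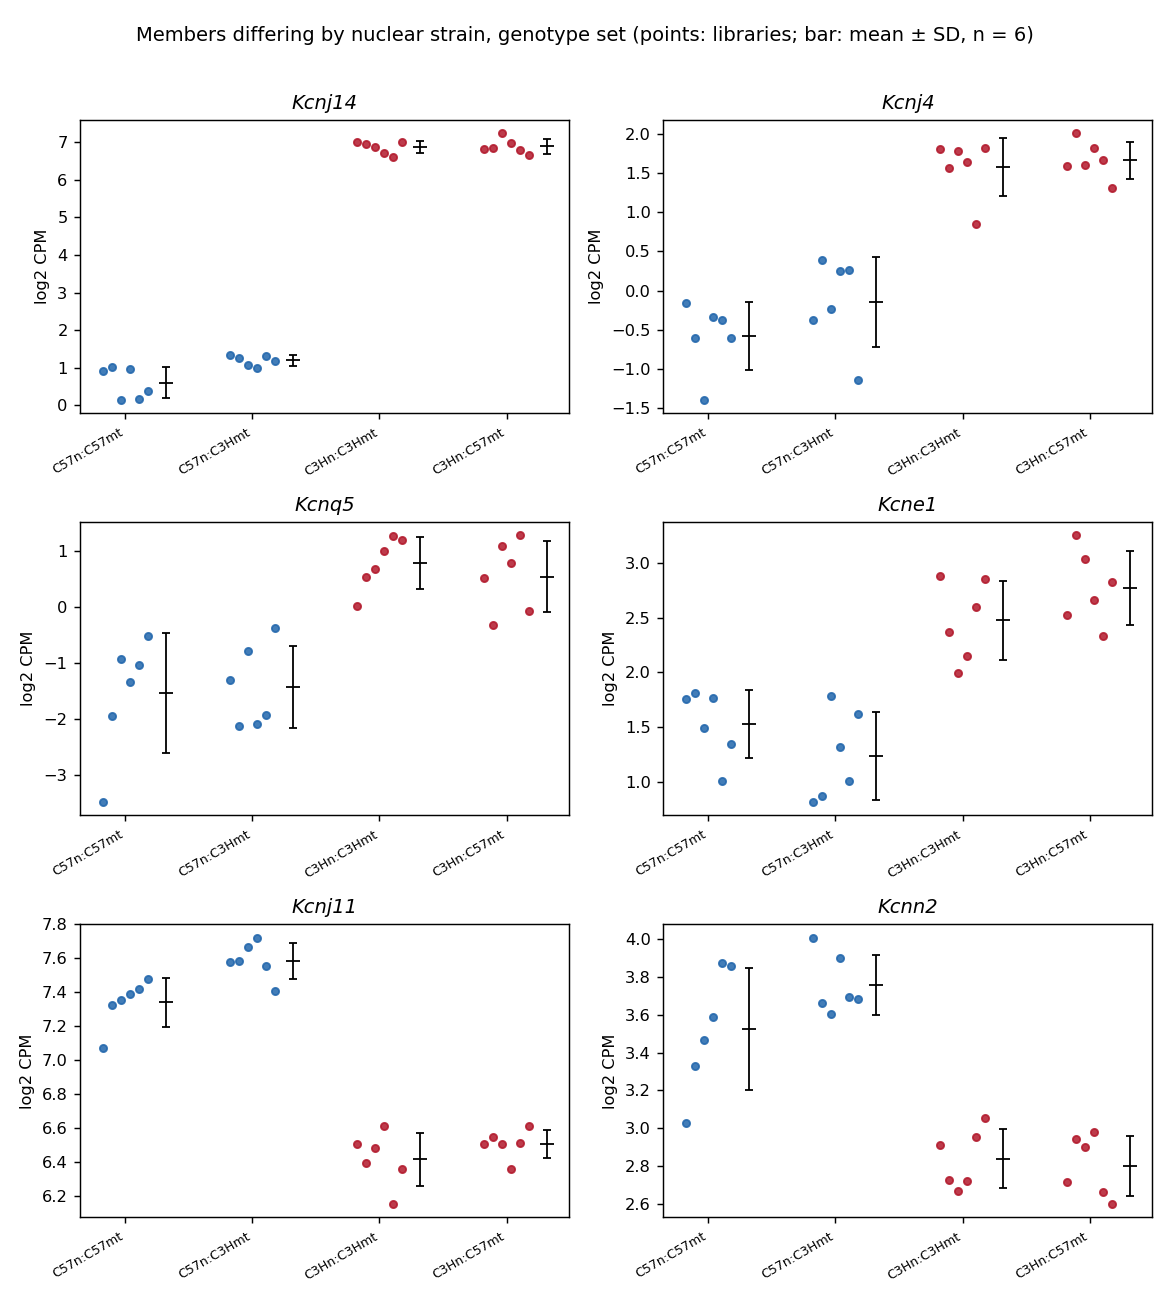
Log2 CPM of 6 members in each of the 24 genotype-set libraries, by nucleus (n) and mitochondria (mt), with group means ± SD (n = 6). Blue C57-nucleus and red C3H-nucleus points do not overlap for Kcnj14, Kcnj4, Kcnq5, Kcne1 and Kcnj11, and overlap only at their edges for Kcnn2.

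Among the inward rectifiers, Kcnj14, which encodes Kir2.4, separated the nuclei most. Its level was 6.61, 6.87 and 7.23 log2 CPM (lowest, median and highest) on the C3H nucleus and 0.15, 1.01 and 1.35 on the C57 nucleus. The counts were 2128 to 3480 in the former libraries and 21 to 49 in the latter. The difference of 6.03 (SE 0.10, adjusted p = 2.36e-24) is a 65.2-fold higher level. It was 6.33 with C57 mitochondria and 5.72 with C3H mitochondria.

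Kcnj4, the Kir2.3 gene whose promoter is shown above, was a low-level member whose ranges on the 2 nuclei did not overlap either. It was at 0.84, 1.65 and 2.00 log2 CPM on the C3H nucleus and at -1.39, -0.35 and 0.39 on the C57 nucleus. The difference was 2.06 (SE 0.16, adjusted p = 1.14e-10), a 4.16-fold higher level. Kcnj12, which encodes Kir2.2, went the other way, at 3.40, 3.70 and 3.92 against 3.53, 4.14 and 4.25 log2 CPM, with a difference of -0.42 (SE 0.07, adjusted p = 5.67e-05). For Kcnj2 the 2 ranges overlapped (5.54, 6.05 and 6.39 against 5.00, 5.97 and 6.70), with a difference of -0.01 (95% interval -0.29 to 0.27, adjusted p = 0.97). So within the Kir2 subfamily 2 genes were higher, 1 was lower and 1 did not pass the test.

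Of the G-protein-gated rectifiers that carry the acetylcholine-activated current, Kcnj5 (Kir3.4) was at 6.00, 6.13 and 6.32 log2 CPM on the C3H nucleus and at 5.59, 6.51 and 6.69 on the C57 nucleus. The difference was -0.26 (SE 0.08, adjusted p = 0.0151). The lowest C57-nucleus value was that of library 1. Without libraries 1 and 2 the Kcnj5 difference was -0.37. Kcnj3 (Kir3.1) differed by -0.20 (adjusted p = 0.434), and by -0.38 (adjusted p = 0.0204) without libraries 1 and 2.

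Of the 4 tested KATP channel genes 1 was higher and 2 were lower. They form 2 pairs in the genome. Kcnj11 and Abcc8 (SUR1) lie close together on chromosome 7, with 1 annotated gene between them, and Kcnj8 (Kir6.1) and Abcc9 (SUR2) are neighbours on chromosome 6. Kcnj11 was at 6.15, 6.505 and 6.61 log2 CPM on the C3H nucleus and at 7.07, 7.45 and 7.72 on the C57 nucleus, so every C57-nucleus library stood above every C3H-nucleus library. The difference was -1.001 (SE 0.06, adjusted p = 6.32e-14), a level 0.50 times that of the C57 nucleus. Abcc8 differed by -0.20 (SE 0.08, adjusted p = 0.0535), and its ranges overlapped (5.07, 5.20 and 5.42 against 4.95, 5.48 and 5.77). Without libraries 1 and 2, in which it was lowest among C57-nucleus libraries, Abcc8 passed at -0.27 (adjusted p = 0.00156).

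Kcnj8 and its neighbour Abcc9 moved in opposite directions. Kcnj8, an abundant transcript of pericytes and smooth muscle as well as a pore gene of the sarcolemma, was at 3.19, 3.59 and 4.12 log2 CPM on the C3H nucleus and 3.34, 4.09 and 4.92 on the C57 nucleus, a difference of -0.44 (SE 0.14, adjusted p = 0.0122). With the title code in the fit the Kcnj8 value turned to 0.12 (adjusted p = 0.836). Of the 9 pericyte and smooth muscle markers 3 passed, Acta2 (0.65) and Des (0.21) higher and Rgs5 (-0.53) lower, and the mean level of all 9 was 4.00 to 4.73 log2 CPM over the C3H wild-type libraries, against 3.88 to 4.85 over those of C57. These mean levels leave out the exchange groups, which the tests include. The part of these markers in the Kcnj8 difference was not tested, and fewer cells of a type and less RNA per cell cannot be told apart. Abcc9 was at 8.34, 8.75 and 9.30 log2 CPM on the C3H nucleus and at 7.23, 8.51 and 8.89 on the C57 nucleus, with a difference of 0.41 (SE 0.15, adjusted p = 0.0327). Without libraries 1 and 2 the Abcc9 difference fell to 0.26 (adjusted p = 0.0618), and with the title code in the fit it was 0.02.

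**Figure D3:**
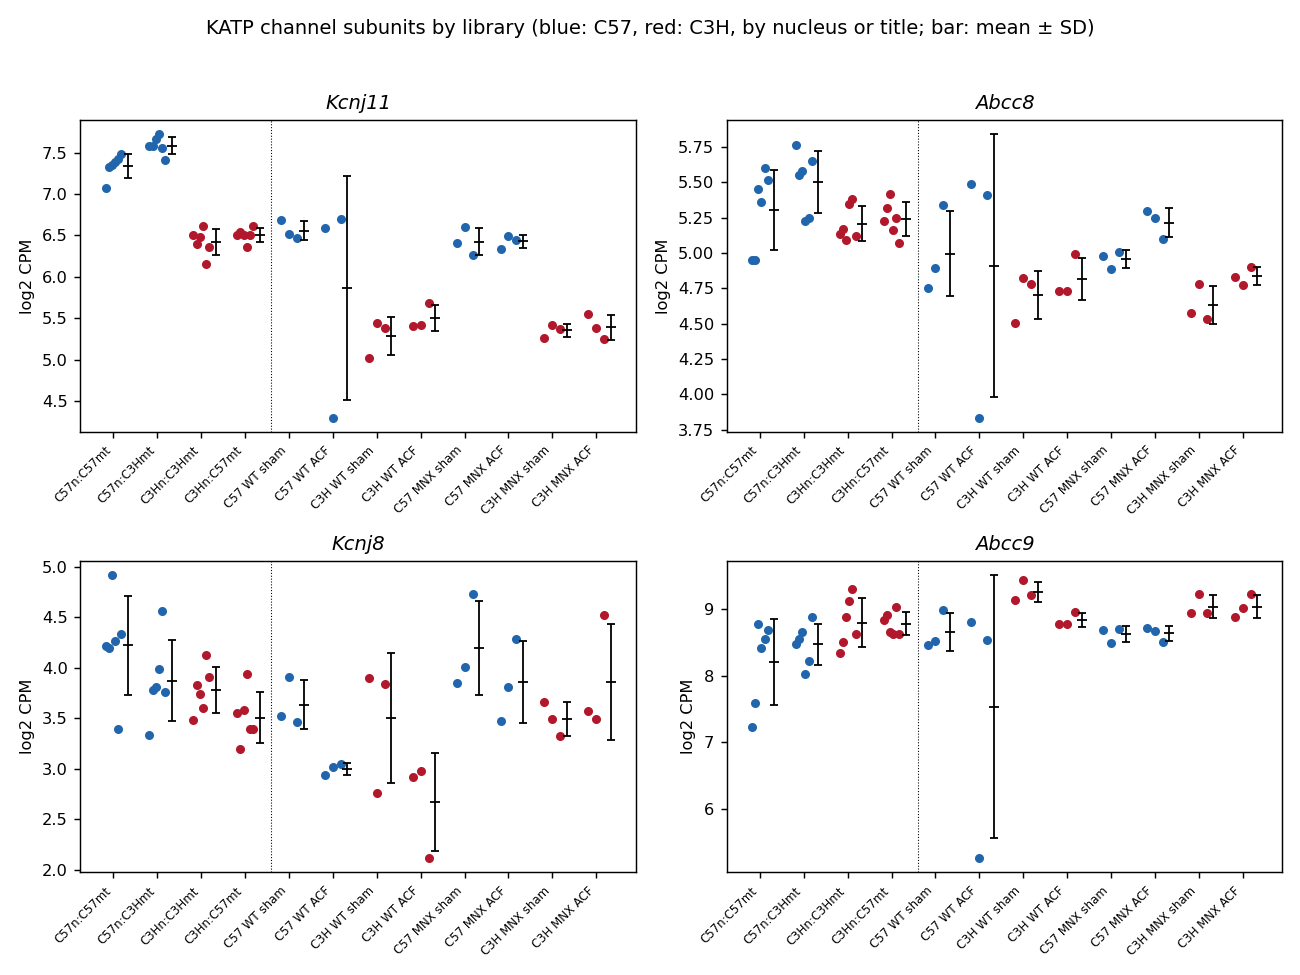
Log2 CPM of the 4 KATP channel genes in all 48 libraries, genotype set left and surgery set right of the dotted line, which were scaled separately, with group means ± SD. Kcnj11 is lower in every red (C3H) group than in the blue sham groups of the same set, and library 489 is the low point in C57 WT ACF for Kcnj11, Abcc8 and Abcc9.

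Of the 5 tested genes of transient outward channels 1 was higher and 2 were lower, but the 2 main pore genes did not pass. Kcnd2 (Kv4.2) differed by 0.12 (SE 0.09, adjusted p = 0.282) and Kcnd3 (Kv4.3) by -0.09 (SE 0.10, adjusted p = 0.553). Their auxiliary subunit gene Kcnip2 was higher on the C3H nucleus, at 5.22, 5.73 and 5.95 against 4.76, 5.28 and 5.47 log2 CPM, by 0.43 (SE 0.08, adjusted p = 7.06e-05). Kcnip3, which encodes KChIP3 and was below 1 CPM in every library of the genotype set, differed by -1.04 (adjusted p = 0.00203). Kcna4, the pore gene of the slow transient outward current, was at -1.99, -0.46 and 0.08 log2 CPM against -1.03, 0.24 and 0.92, a difference of -0.76 (SE 0.23, adjusted p = 0.0122). Within L2 the Kcna4 difference was -0.20 (adjusted p = 0.651).

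Of 6 tested delayed rectifier pores of the Kv1 and Kv2 families 1 was higher and 1 lower. Kcna5 (Kv1.5), which carries a sustained current of mouse ventricle, did not pass, with a difference of -0.19 (SE 0.20, adjusted p = 0.483). Kcna7, a Kv1 pore gene of heart and skeletal muscle, was higher by 0.23 (SE 0.06, adjusted p = 0.00248), at 3.94, 4.08 and 4.27 against 3.54, 3.86 and 4.07 log2 CPM. Kcng2, the abundant Kv2 modifier, was higher by 0.19 (SE 0.05, adjusted p = 0.00334). Kcna2, a Kv1 pore gene, differed by -1.02 (SE 0.32, adjusted p = 0.013), and Kcnc1, a Kv3 pore gene, by -0.75 (SE 0.29, adjusted p = 0.0474), both at levels near 1 CPM where the ranges of the 2 nuclei overlapped widely. The Kcnc1 call held in 10 of 31 alternative settings.

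Of 4 tested KCNQ and ether-a-go-go pores 2 were higher, a rare one by much and an abundant one by little. Kcnq1, the pore of the slow delayed rectifier, differed by -0.05 (95% interval -0.18 to 0.08). Kcnh2 was higher by 0.21 (SE 0.07, adjusted p = 0.0286), and by 0.13 (adjusted p = 0.0694) without libraries 1 and 2. Kcnq5 was at -0.32, 0.74 and 1.29 log2 CPM on the C3H nucleus and at -3.49, -1.32 and -0.37 on the C57 nucleus, a difference of 2.25 (SE 0.31, adjusted p = 1.47e-06). Kcne1, the small subunit that slows KCNQ1 gating, was at 2.00, 2.63 and 3.25 against 0.82, 1.42 and 1.81 log2 CPM, a 2.40-fold higher level (log2 difference 1.26, SE 0.14, adjusted p = 6.5e-08). The 95% interval of the Kcne1 difference was 0.98 to 1.54, which does not overlap that of its pore partner Kcnq1. Kcnq1ot1, the noncoding transcript antisense to Kcnq1, differed by -0.20 (adjusted p = 0.175), and it is not stated whether counting used strand.

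Of 5 tested K2P channels 1 was higher. Kcnk3, the most abundant member, was at 8.33, 8.60 and 8.77 log2 CPM against 8.15, 8.47 and 8.59 and differed by 0.12 (SE 0.06, adjusted p = 0.122). Kcnk2, which encodes the mechanosensitive TREK-1 and was close to 1 CPM, was higher by 0.87 (SE 0.16, adjusted p = 1.45e-04). Kcnk5 (TASK-2) passed only with C57 mitochondria, at -1.53 (adjusted p = 0.0121); libraries 1 and 2 had its highest levels, 1.26 and 1.31 log2 CPM, and without them the value was -0.73 (adjusted p = 0.214). Of the small-conductance calcium-activated channel genes, Kcnn2 (SK2) was lower on the C3H nucleus, at 2.60, 2.81 and 3.06 against 3.03, 3.68 and 4.01 log2 CPM, a difference of -0.84 (SE 0.09, adjusted p = 1.34e-08). Kcnn1 (SK1) was lower too, with a difference of -0.32 (SE 0.06, adjusted p = 8.37e-05), and Kcnn3 was below the filter in this set.

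The genes around Kcnj14 were looked at as a description, since Kcna7, Kcnj14, Kcnj11, Abcc8 and Kcnc1 lie in 1 stretch of chromosome 7 in the RefSeq order on GRCm38. Between Kcna7 and Kcnc1 the reference lists 60 genes, of which 31 were tested and 15 passed in the nuclear comparison, 48.4%, with 8 higher and 7 lower, against 35.7% of all genes. These include 4 of the 5 members, and without the members 11 of 26 passed (42.3%). The stretch was chosen after the values of its members were seen. Besides Kcnj14, the largest value belonged to Fut2, at -4.50. The next neighbours of Kcnj14 were Cyth2 at 0.03 (adjusted p = 0.726) on one side and Grwd1 at 0.40, Grin2d at 1.12 and Kdelr1 at -0.35 on the other, which passed. Lmtk3 did not pass the filter, and Gm5897 was not a row of the table.

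Partners and regulators of these channels were described from lists. Of 24 partner genes 20 were tested, and 6 were higher and 3 lower on the C3H nucleus, 9 of 20 in all, where 35.7% of all genes passed. Dpp6, an auxiliary subunit of Kv4 channels, was higher by 3.71 (SE 0.35), and Akap9, the yotiao scaffold of KCNQ1, by 0.63. Rgs6, which limits the G-protein signal to Kir3 channels, was lower with a difference of -1.76, and the scaffold gene Dlg1 with one of -0.40. Of 16 transcription factors of cardiac channel genes 15 were tested and 6 were higher, among them Tbx20 (0.56), Tbx3 (0.38) and Nkx2-5 (0.37), and 0 were lower, so 40.0% passed, near the share of all genes. Of 10 other potassium-permeable channels 9 were tested, and 6 were higher and 0 lower (66.7%), among them the pacemaker channel gene Hcn4 (1.01, SE 0.21). Median log2 differences of the 3 lists were 0.09, 0.20 and 0.25, against 0.01 for all genes. Of 4 tested atrial markers 2 were also higher, Myl4 (2.23) and Nppa (1.37); their part in these values was not tested.

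The surgery set gave separate libraries for the same strains. Among sham wild types, C3H minus C57, 3 of 45 tested members passed, 2 higher (Kcnj14 and Kcnq5) and 1 lower (Kcnj11), where 3.76% of 13440 genes did, 2.17% higher and 1.59% lower. Of the 20 members that passed in the genotype set, 18 had the same sign here; the 2 others were Kcne1 and Kcng2. Of the 22 other members tested in both sets, 12 had the same sign. Between the sham groups titled C3H_MNX and C57_MNX all 20 had the same sign, and 1 member passed (Kcnj14, higher), where 4.43% of genes did, 2.36% higher and 2.08% lower. Leaving out 1 library moved these counts: between wild types 1 member passed without C57 sham library 467 or C3H sham library 482 and 6 without library 489, and between MNX titles 10 passed without library 489. Calls over all genes moved as well when 1 library was left out, as listed at the end. These counts are therefore not read as a result about the members.

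**Figure D4:**
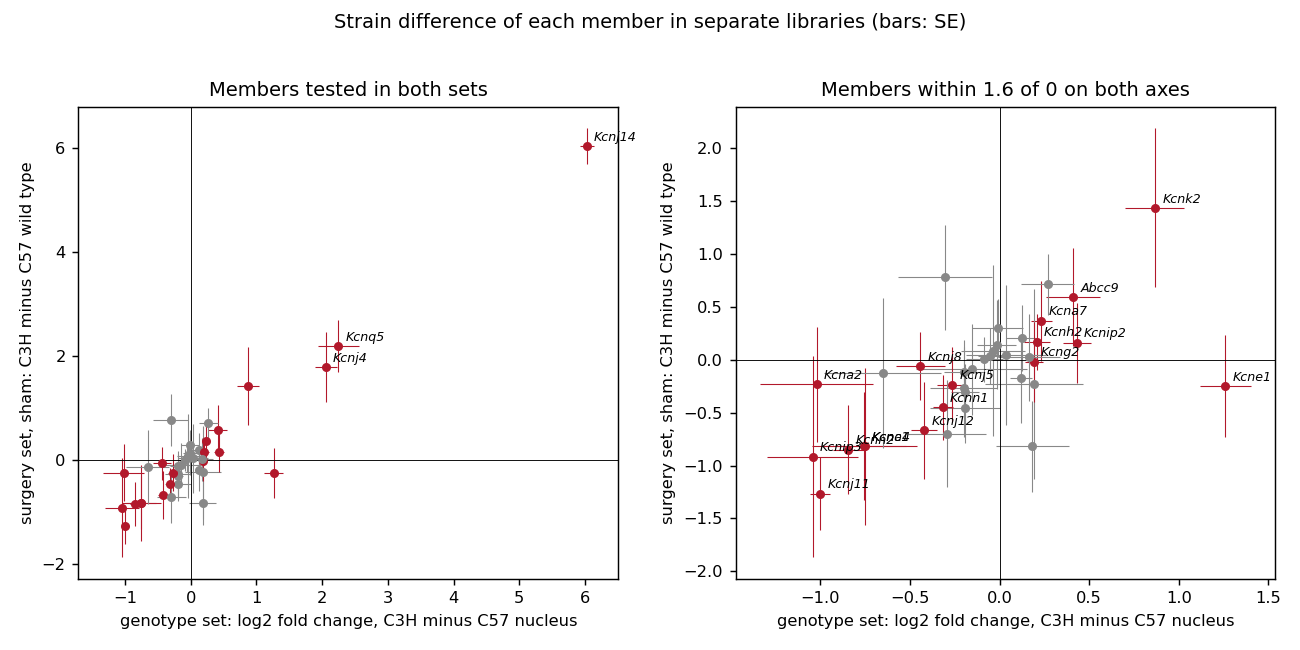
Log2 fold change of the same members where tested in both sets, with SE bars: C3H minus C57 nucleus in the genotype set (x) against C3H minus C57 wild type among sham libraries of the surgery set (y); red members passed in the genotype set. Kcnj14, Kcnq5 and Kcnj4 lie high on both axes, Kcnj11 low on both, and Kcne1 is at 1.26 on x and -0.25 on y.

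Kcnj14 was at 5.43, 5.51 and 5.38 log2 CPM in the C3H sham libraries and at -0.53, -0.17 and -0.52 in the C57 sham libraries. It was at 5.60, 5.30 and 5.80 in the sham libraries titled C3H_MNX and at -0.76, -1.998 and -1.70 in those titled C57_MNX. The level thus followed the strain in the title and not the nucleus in the genotype label. The Kcnj14 differences were 6.04 (SE 0.35, adjusted p = 1.06e-09) and 7.42 (SE 0.39, adjusted p = 3.7e-10), the second against libraries with 7, 2 and 3 counts, where the value depends on the prior count.

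Kcnj11 was at 5.03, 5.45 and 5.39 log2 CPM in C3H sham libraries and at 6.69, 6.52 and 6.47 in C57 sham libraries. It was at 5.26, 5.43 and 5.37 under the title C3H_MNX and at 6.41, 6.60 and 6.27 under C57_MNX, so the 6 libraries of each title strain did not overlap. Wild types differed in Kcnj11 by -1.27 (SE 0.35, adjusted p = 0.0446) and MNX titles by -1.08 (SE 0.35, adjusted p = 0.0899). With library 489 left out, which is not in these contrasts but enters the shared spread, they were -1.23 (adjusted p = 1.02e-06) and -1.05 (adjusted p = 9.36e-06). The wild-type call for Kcnj11 held in 5 of 28 alternative settings and was lost in 23, with adjusted p up to 0.236 (without C3H sham library 482), while the difference stayed between -1.35 and -1.145. In this set the 6 against 6 sham libraries did not overlap for 6 members, Kcnj14 and Kcnq5 higher and Kcnj11, Kcnj12, Kcnn1 and Kcnn2 lower by title C3H, where 9.06% of all genes did not overlap.

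Kcnq5 was at 1.597, 1.35 and 1.05 log2 CPM in the C3H sham libraries and at -0.23, -1.44 and -0.52 in the C57 sham libraries, with a difference of 2.20 (SE 0.49, adjusted p = 0.0112). Kcnj4 was at -0.93, 0.72 and 0.63 against -2.63, -0.67 and -0.99, a difference of 1.79 (adjusted p = 0.228). Kcne1, in contrast to the genotype set, was at 1.36, 0.83 and 1.68 in C3H sham and at 1.74, 1.91 and 0.81 in C57 sham libraries, with a difference of -0.25 (95% interval -1.197 to 0.70). Under the titles C3H_MNX and C57_MNX it was at 2.17, 1.66 and 2.94 against 0.87, 1.202 and 1.35.

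The mitochondrial genome was compared in the genotype set as C3H minus C57 mitochondria on each nucleus. With edgeR 0 of 43 members passed on either nucleus or in the mean, where 0.0% of genes passed on the C57 nucleus, 0.00747% (1 gene) on the C3H nucleus and 0.0% in the mean. At an unadjusted p under 0.05 there were 6, 2 and 3 members (14.0%, 4.65% and 6.98%), where 11.3%, 9.38% and 4.1% of all genes had one, and DESeq2 also called 0 members. On the C57 nucleus Kcnj14 had the smallest p, at 0.15 to 1.02 log2 CPM with C57 mitochondria and 0.99 to 1.35 with C3H mitochondria, a difference of 0.59 (SE 0.16, adjusted p = 0.27). Kcnj11 on the C57 nucleus was at 7.07 to 7.48 with C57 and 7.41 to 7.72 with C3H mitochondria, a difference of 0.24 (SE 0.08, adjusted p = 0.27). On the C3H nucleus these 2 genes differed by -0.02 and -0.08. Within a nucleus 4 of 6 exchange libraries carry L2 and 0 wild-type libraries do, so these differences run partly along the title code.

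Whether the nuclear difference itself depended on the mitochondria was tested by the interaction, which sets the wild types against the exchange groups and so also runs along the title code. It passed for 0 of 43 members with edgeR, where 0.0% of genes passed, and 6 members (14.0%) had an unadjusted p under 0.05, against 16.3% of all genes. The Kcnj14 interaction was -0.61 (SE 0.19, adjusted p = 0.127) and that of Kcnj11 -0.33 (SE 0.11, adjusted p = 0.14). DESeq2 called 1 member, Kcnj11, at -0.35 (adjusted p = 0.0499). With the code as a factor in edgeR the values were -0.40 (adjusted p = 0.537) for Kcnj14 and -0.43 (adjusted p = 0.306) for Kcnj11. Abcc9, Kcnk3, Kcnd2 and Kcnj2 differed between mitochondria by 0.12, 0.05, 0.14 and 0.14 in the mean of both nuclei. For Kcnk3 the 95% interval of that difference was -0.07 to 0.17, which bounds it closely.

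ACF surgery was compared with sham in each of the 4 groups of the surgery set and in their mean. With edgeR 0 of 45 members passed in the mean, where 0.275% of 13440 genes (37) did (0.201% higher, 0.0744% lower), and DESeq2 also called 0. Within single groups 0 members passed, where 0.0% of genes passed in 3 groups and 0.00744% (1 gene) in C3H_MNX. At an unadjusted p under 0.05 there were 6 members in the mean (13.3%, against 11.3% of all genes), among them Kcnd2, Kcnj2 and Kcnj8 with negative values and Kcne1 and Kcnk5 with positive ones. The response to ACF did not differ past the threshold for any member between C3H and C57 wild types, or between either MNX title and the wild type of that name, where 0.0% of genes passed.

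**Figure D5:**
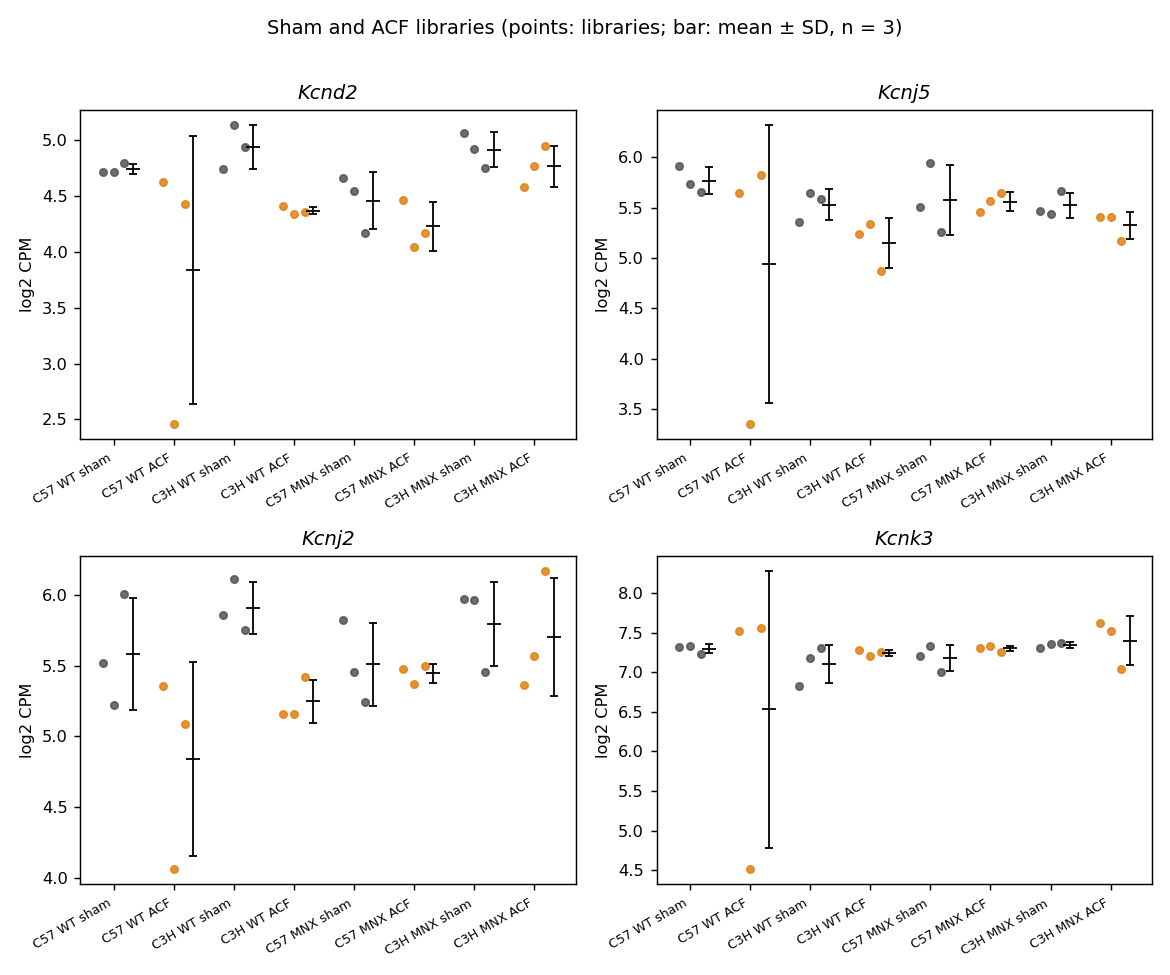
Log2 CPM of Kcnd2, Kcnj5, Kcnj2 and Kcnk3 in sham (grey) and ACF (orange) libraries of the surgery set, with group means ± SD (n = 3). Library 489 is the lowest point of C57 WT ACF in all 4 panels; all 3 C3H WT ACF points of Kcnd2 lie below the 3 sham points.

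Kcnd2, the Kv4.2 pore gene, was at 4.74, 5.13 and 4.93 log2 CPM in C3H sham libraries and at 4.41, 4.34 and 4.35 in C3H ACF libraries, which do not overlap. In C57 wild type it was at 4.71, 4.71 and 4.79 in sham and at 4.63, 2.46 and 4.43 in ACF libraries, the 2.46 being library 489. Over the 4 groups 8 of 12 ACF libraries were below the lowest sham library of their own group and 0 were above the highest. Kcnj5 had the same counts, with a mean difference of -0.27 (adjusted p = 0.61). The share of all genes with such counts was not computed, so they are not read as particular to Kcnd2. The mean difference of Kcnd2 was -0.40 (SE 0.16, adjusted p = 0.328). Without library 489 alone it was -0.29 (adjusted p = 0.0672). Without library 489 and library 6756, an ACF library titled C3H_MNX with raised fibroblast and macrophage markers, it was -0.31 (SE 0.07, adjusted p = 0.0285), and in C3H wild types alone -0.59 (adjusted p = 0.0388). These libraries were chosen after the data were seen. More of all genes passed without them too, both in the mean and in C3H wild types.

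Kcnj2 was at 5.86, 6.11 and 5.76 log2 CPM in C3H sham and at 5.16, 5.16 and 5.42 in C3H ACF libraries, which do not overlap either. In the groups titled C57_MNX and C3H_MNX sham and ACF values of Kcnj2 overlapped. Its mean difference was -0.38 (SE 0.14, adjusted p = 0.281), and -0.37 (adjusted p = 0.0513) without libraries 489 and 6756. Kcne1 had a mean difference of 0.57 (SE 0.24, adjusted p = 0.369), with 8 of 12 ACF libraries above the highest sham library of their group and 1 below the lowest. Abcc8 had the same counts, with a mean difference of 0.16 (adjusted p = 0.717), and the share of all genes was not computed. In C3H wild types Kcne1 was at 1.36, 0.83 and 1.68 in sham and 2.09, 3.01 and 1.87 in ACF libraries.

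The KATP genes did not pass after ACF. The mean differences were -0.03 (SE 0.17) for Kcnj11, 0.16 (SE 0.13) for Abcc8, -0.36 (SE 0.16) for Kcnj8 and -0.23 (SE 0.23) for Abcc9. Kcnk3 was at 4.51 log2 CPM in library 489 and between 7.04 and 7.62 in the other 11 ACF libraries, with a mean difference of 0.02 (95% interval -0.39 to 0.42). Of 19 tested partner genes, 15 transcription factors and 9 other potassium-permeable channels, 0 passed in the mean.

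In the C57 wild-type group the ACF values of several members turned on 1 library. Without ACF library 465, 3 members passed there, and without ACF library 490, 1 did, where library 489 remained in the group. Over all genes the calls in this group moved too, as listed at the end, so these counts are not read as a result about the members. Kcnk5 was at -1.23, -0.93 and -0.52 log2 CPM in sham and at -0.87, 2.01 and 0.14 in ACF libraries, the 2.01 being library 489. Its difference there was 2.00 (adjusted p = 0.196), and 0.74 (adjusted p = 1) without that library. In the same group Abcc9 differed by -0.51 with library 489 and by 0.02 without it, and Kcnj12 by -0.23 and by 0.31. Neutrophil and fibroblast markers in library 489 averaged 4.02 and 6.69 log2 CPM, against at most 2.70 and 6.13 in the other 11 ACF libraries; their part in the member values was not tested.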

How the data were processed

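Per the submitters' processing notes, the tools named are CASAVA 1.8.2, Bowtie and RSEM 1.2.0 with the mouse build mm9. The labels' protocol names other mapping software, and which one made the table is not settled. As deposited, each value is an estimated count per gene, made by the authors from aligned reads. Of these values 13.9% were not whole, so all were rounded. Estimated counts divide shared reads between similar genes.

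The members and gene lists were chosen with earlier results of these data known. Each set of 24 libraries was fitted separately with edgeR 4.0.16 in R 4.3.3 (TMM scaling, filterByExpr, quasi-likelihood F test, Benjamini-Hochberg adjustment over all genes tested, threshold 0.05). DESeq2 1.42.0 served as an alternative. Levels (log2 CPM) used 2 as prior count. An SE is the absolute log2 fold change divided by the square root of F. Groups came from titles and genotype labels. The labels do not say that each library is a separate animal, and p-values here measure only how these libraries vary, which may be technical. None of the 84 library pairs within a group agreed within sampling noise, and pairs across groups were not compared. The fit was tested on simulated data.

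Named members were a set of cardiac channel genes plus every member past the threshold (at most 25 per comparison), up to 6 genes per list and the 3 neighbours on each side of Kcnj14. Some genes that this rule names are not reported here; they stay in the fits and counts. Alternatives were DESeq2, no low-count filter, all 48 libraries together, each library left out and the title code as a factor. Further ones, chosen after seeing the data, left out libraries 489 and 6756, left out libraries 1 and 2, or fitted title code L2 only. Promoters and gene order came from RefSeq and transcript lengths from GENCODE on GRCm38. No coordinates of the authors' build were used.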

Additional observations from a re-analysis of the deposited data

Results flagged for a closer look

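In 7 of 120 groups of 6 libraries tested, 1 library lay apart from the others by Dixon's criterion, which chance alone meets in about 1 group in 20. In C57n:C57mt, library 3 was high for Kcna2 at 1.12 log2 CPM (others -0.91 to -0.22) and low for Kcnj4 at -1.39 (others -0.60 to -0.16). In the same group, Kcna5 was at 2.50 in library 5 (others 3.41 to 3.86) and Kcnc1 at -2.97 in library 1 (others -0.73 to 0.33). In C57n:C3Hmt, Kcnc1 was at -1.39 in library 7 (others 0.04 to 0.77). Library 23 of C3Hn:C3Hmt stood apart for 2 genes, Kcnj4 at 0.84 (others 1.56 to 1.81) and Kcnn1 at 3.51 (others 3.77 to 3.90).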

How the results depend on the processing

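No paired analysis was possible because each replicate number belongs to 1 library and none is shared between groups. Of 14979 recomputed values of named members, 1 called value reversed, 140 lost and 69 gained the call; of 53 calls, 14 held in every setting. The reversal was Kcnj8 in the nuclear comparison with the title code in the fit (0.12). With the title code, 6 members passed in the nuclear comparison and 3 with C57 mitochondria, and genes called went from 4776 to 1399, from 4272 to 1075 and from 2599 to 1191 (mean, C57 and C3H mitochondria). With all 48 libraries in the fit, 11 members passed with C57 mitochondria, 5 between MNX titles and 1 for ACF in C57 wild type. DESeq2 called 1 member in the interaction and 5 between MNX titles. Without libraries 489 and 6756, 1 member passed for ACF in the mean and 1 in C3H wild type. Leaving out 1 library gave 18 to 21 members in the nuclear comparison, 16 to 18 with C57 and 10 to 14 with C3H mitochondria, 1 to 6 between wild types (6 without library 489, 1 without 482 or 467), 1 to 10 between MNX titles (10 without 489), 0 to 3 for ACF in C57 wild type (3 without 465) and 0 elsewhere. Genes called for ACF in the mean were 37, against 244 with DESeq2, 401 with all 48 libraries, 344 without 489 and 6756 and 12 to 174 leaving out 1 library. In C57 wild type genes called for ACF were 0, against 176 with DESeq2, 1018 with all 48 libraries and 0 to 874 leaving out 1; in C3H wild type 0, against 83, 112 and 0 to 69, and 192 without 489 and 6756. Strain differences went from 506 to 806 (wild types) and from 596 to 1130 (MNX titles) with all 48 libraries, and to 325 to 879 and 379 to 1394 leaving out 1. The interaction went from 0 genes to 332 with DESeq2 and to 0 to 422 leaving out 1. For the mitochondria DESeq2 called 15, 7 and 1 genes (C57 nucleus, C3H nucleus, mean), against 0, 1 and 0. The causes were not tested. Depth limits the low members: below about 1 CPM a library holds few counts.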
